A study of Mus musculus with 60 samples.

Results

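The CYP4 fatty acid hydroxylases described here are the 7 mouse genes Cyp4a10, Cyp4a12a, Cyp4a12b, Cyp4a14, Cyp4a31, Cyp4a32 and Cyp4b1. They were chosen by name and not by a rule on their values, but earlier results of these data were known at that time. They were matched by Ensembl identifier among the 55335 genes in the count files. All 7 passed the filter on low counts and were among the 15546 genes retained for testing. Transcripts of these genes were followed by RNA-Seq in kidneys of 60 male mice, 5 in each of 12 groups formed by 2 genotypes and 6 time points.

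Mice of the cKOt genotype were Bmal1lox/lox/Pax8-rtTA/LC1 Cre animals, in which doxycycline switches on Cre recombinase in cells that drive rtTA from the Pax8 promoter, that is along the renal tubule. Control mice were littermates with the Bmal1lox/lox alleles alone. Both genotypes therefore carried the floxed alleles, were on the C57BL/6J background and drank doxycycline at 2 mg/ml with 20 mg/ml sucrose for 2 weeks from the age of 8 weeks. Kidneys were taken 4 weeks after the end of doxycycline, every 4 h from ZT0 to ZT20, where ZT is the time in h after lights on under 12 h of light and 12 h of dark, with free access to chow. The labels name the tissue renal tubule, whereas the methods of the study describe a piece of frozen kidney. The deletion was thus made in 1 compartment of a mixed tissue. The 5 mice of each group had been picked by the authors from 6 on RNA quality and on distance in a principal component analysis.

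Each library held 17791420 to 20906706 reads on genes. The targeted gene, listed as Arntl (Bmal1), had group means between 2.73 and 48.4 CPM (counts per 1000000 reads of the TMM-scaled library) over the 6 control groups and between 17.4 and 24.4 CPM over the 6 cKOt groups. Here and below a result is called when its edgeR adjusted p is below 0.05. Variation of Arntl over time was called in control (edgeR adjusted p = 4.1e-24) and was not called in cKOt (edgeR adjusted p = 0.189), and the counts do not separate transcripts with and without the floxed exon. Podocyte, endothelial and fibroblast markers were present next to the tubular ones. Of these, 4 of 4 retained endothelial and 4 of 4 fibroblast markers were called lower in cKOt, against 23.2% of all retained genes. Their medians were -0.11 and -0.22 on the log2 scale. Proximal tubule markers summed to between 9710 and 14595 CPM in control mice and between 8946 and 15019 CPM in cKOt mice. One library, cKOt ZT12 replicate 3, lay far above the other 4 mice of its group in 4 of the 7 CYP4 genes, and the results it moved are also given without it. Another library, cKOt ZT16 replicate 4, was marked for removal in the study's sample table and was kept. Its removal left the counts of called CYP4 genes the same and raised the called gene pairs from 17 to 18.

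CYP4 enzymes are microsomal cytochrome P450 monooxygenases that place a hydroxyl group on the end of a fatty acid chain, the omega position. The omega-hydroxy acid can be oxidized further to a dicarboxylic acid and shortened in peroxisomes, and omega-hydroxylation of arachidonic acid gives an eicosanoid that acts on renal vessels and tubular sodium transport. In mouse kidney, Cyp4a10 and Cyp4a14 are classical targets of the fatty acid receptor PPARα, whereas Cyp4a12a is known for its androgen dependence and as the main arachidonic acid omega-hydroxylase of males.

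The 7 genes lie close together on chromosome 4 of GRCm38, in a cluster of 349 kb from 115299046 to 115647723, with pseudogenes and the gene Cyp4a30b annotated between some of them. In the order of the annotation they are Cyp4a12a (ENSMUSG00000066071, chr4:115299046-115332815), Cyp4a12b (ENSMUSG00000078597, chr4:115411624-115439034), Cyp4a14 (ENSMUSG00000028715, chr4:115486200-115496142), Cyp4a10 (ENSMUSG00000066072, chr4:115518264-115533649), Cyp4a31 (ENSMUSG00000028712, chr4:115563649-115579015), Cyp4a32 (ENSMUSG00000063929, chr4:115600969-115621602) and Cyp4b1 (ENSMUSG00000028713, chr4:115624725-115647723). Cyp4a14 and Cyp4b1 are on the minus strand and the other 5 on the plus strand.

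How alike these genes are decides how far their reads can be told apart, so the coding stretch around the codon of the heme-binding cysteine, the residue that holds the iron of the active site, is shown for 1 gene of each sequence type. Each line is 60 bases of coding sequence from GENCODE transcripts, 5′ to 3′ on the strand of the gene, joined over 1 intron, with the cysteine codon tgc near the middle and capitals where a base differs from Cyp4a10.
Cyp4a10: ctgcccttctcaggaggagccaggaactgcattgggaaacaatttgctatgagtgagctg
Cyp4a12a: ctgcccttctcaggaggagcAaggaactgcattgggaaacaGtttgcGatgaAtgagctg
Cyp4a14: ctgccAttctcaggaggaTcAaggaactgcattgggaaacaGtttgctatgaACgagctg
Cyp4b1: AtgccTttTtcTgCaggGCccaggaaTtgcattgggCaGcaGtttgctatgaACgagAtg
The stretch lies within chr4:115529496-115532567 for Cyp4a10, chr4:115328980-115331870 for Cyp4a12a, chr4:115487275-115489811 for Cyp4a14 and chr4:115625192-115625668 for Cyp4b1, exons and intron included. It differed from Cyp4a10 at 4 bases in Cyp4a12a, 6 in Cyp4a14 and 14 in Cyp4b1. Cyp4a31 and Cyp4a32 had the same 60 bases as Cyp4a10, and Cyp4a12b the same as Cyp4a12a.

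Over the whole coding sequence, Cyp4a12a and Cyp4a12b were 98.5% identical, with 23 differing bases of 1524 and a longest shared run of 342 bases. Cyp4a10, Cyp4a31 and Cyp4a32 were 96.0 to 97.2% identical to each other, whereas Cyp4b1 was 60.3 to 62.4% identical to the others. The 60 coding bases that differ most are given next for Cyp4a12a with Cyp4a12b and for Cyp4a10 with Cyp4a31, with capitals at the differing bases.
Cyp4a12a: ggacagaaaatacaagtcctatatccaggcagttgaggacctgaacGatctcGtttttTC
Cyp4a12b: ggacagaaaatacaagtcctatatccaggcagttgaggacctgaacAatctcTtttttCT
Cyp4a10: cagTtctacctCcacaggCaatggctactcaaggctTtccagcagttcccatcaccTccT
Cyp4a31: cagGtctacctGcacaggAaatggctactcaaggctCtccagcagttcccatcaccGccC
The first pair of stretches, coding bases 624 to 683 in chr4:115326309-115326681 and chr4:115432561-115432934, carried 4 of the 23 differing bases. The second pair, coding bases 106 to 165 in chr4:115518427-115518486 and chr4:115563822-115563881, carried 6 of the 52 bases that distinguish Cyp4a10 from Cyp4a31. For Cyp4a10 and Cyp4a32, not shown, the 60 coding bases that differ most carried 9 of 43 differing bases. Stretches of 150 bases, the number of sequencing cycles, were shared with the partner gene for 25.6% of the positions of Cyp4a12a and 25.9% of those of Cyp4a12b. They were shared for 4.04% of Cyp4a10, 3.54% of Cyp4a31, 6.96% of Cyp4a32 and 0% of Cyp4a14 and Cyp4b1. Reads that aligned to more than 1 place were not counted, so the values of the close pairs came from the stretches that differ, and some reads may still have been assigned to the wrong member.

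Cyp4b1 was the main CYP4 transcript in both genotypes. Counted per kb of exon to compare levels between genes, it averaged 1423 CPM per kb in control and 778 in cKOt. Cyp4a31 and Cyp4a10 followed at 158 and 147 CPM per kb in control and 106 and 84.1 in cKOt. The genes next to Cyp4b1 in level were thus the inducible lauric acid hydroxylase and its copy, about an order of magnitude below it. Cyp4a12a was at 77.0 CPM per kb in control and at 13.2 in cKOt. Cyp4a14 stood at 13.1 and 18.8 CPM per kb, and the cKOt value was 11.3 without cKOt ZT12 replicate 3, below control and below the 13.4 of Cyp4a12a in the same 29 mice. Further down came Cyp4a12b at 4.21 and 1.02 and Cyp4a32 at 0.269 and 0.377. The last 2 contributed little to the CYP4 transcripts of these kidneys. The order of Cyp4a31 and Cyp4a10 in control turned when levels were counted per 1000 stretches unique to the gene, with 147 for Cyp4a31 and 154 for Cyp4a10. Of all reads on the 7 genes, Cyp4b1 took 77.2% ± 5.45 in control and 77.1% ± 7.70 in cKOt (SD, n = 30), and Cyp4a12a took 4.43% ± 1.37 and 1.39% ± 0.740.

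Averaged over the 6 time points, 5 of the 7 genes were lower in cKOt kidneys, 1 was higher and 1 was not called. Of all retained genes, 50% were called for this comparison, 23.2% as lower and 26.8% as higher, so that a called gene is not rare in these data. The sizes were less common. Cyp4a12a was 6.03-fold lower in cKOt mice and Cyp4a12b 4.09-fold lower, and only 0.193% of the retained genes were called and at least 4-fold lower. By this difference Cyp4a12a ranked 13 and Cyp4a12b 29 from the most negative gene. The median log2 difference of the 7 genes was -0.81, against 0.012 over all genes tested. The call of Cyp4a32, the higher one, was lost in 13 of 21 alternative analyses, and this gene passed the filter through cKOt mice alone. When cKOt ZT12 replicate 3 was left out, the 5 lower genes were called and Cyp4a32 was not, with 50.1% of all genes called. The same 5 were called lower with library batch as a term in the fit. In bulk tissue, fewer cells of a type and less RNA per cell cannot be told apart.

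**Figure D1:**
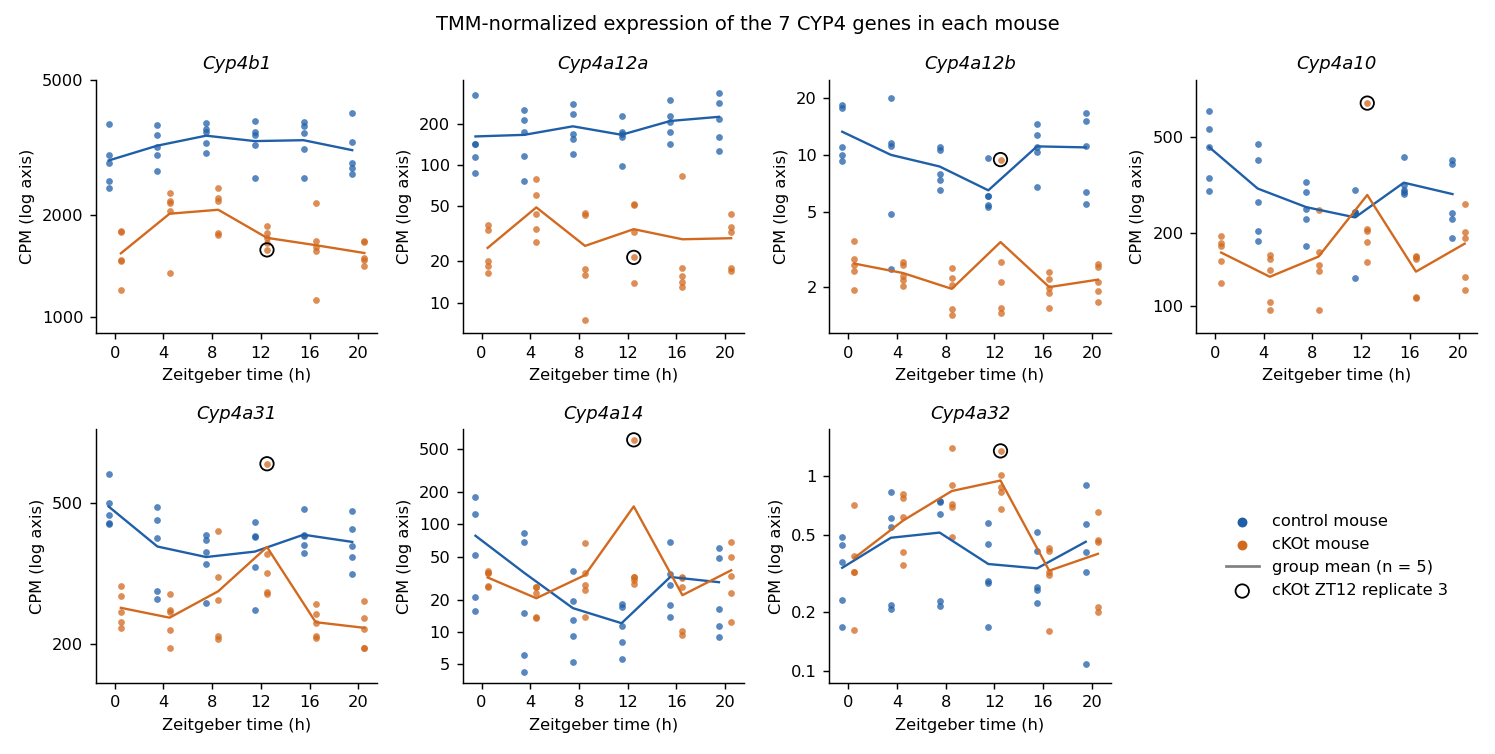
Normalized expression (CPM, log axis) of each of the 7 genes against zeitgeber time in h, with 1 point for each mouse and lines through the group means of 5 mice. Cyp4b1 of every cKOt mouse lies below every control mouse, whereas the circled mouse, cKOt ZT12 replicate 3, is the highest of all 60 for Cyp4a14, Cyp4a10 and Cyp4a31.

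Cyp4b1, which accepts shorter fatty acids and a range of foreign compounds, separated the genotypes completely. In the 30 control mice it ranged from 2406 to 4007 CPM with a median of 3239, and in the 30 cKOt mice from 1123 to 2403 CPM with a median of 1696. Not 1 cKOt mouse reached the lowest control mouse, at any time point or over the whole day. The margin at the edge was small, 2403 against 2406 CPM, between cKOt ZT8 replicate 4 and control ZT0 replicate 4. Such a separation over all 60 mice was seen in 52 retained genes (0.334%), and a separation at each of the 6 time points in 105 (0.675%). The mean fell from 3210 ± 449 to 1755 ± 335 CPM (SD, n = 30), a log2 change of -0.88 with a standard error of 0.0437 (edgeR adjusted p = 3.02e-24).

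The 250 bases before the RefSeq start of Cyp4b1 (chr4:115647722-115647971, minus strand, GRCm38.p6) are shown because Cyp4b1 and Cyp4a32 were the only 2 of the 7 genes with a promoter window in the table used. Capitals mark the 1 motif found among those searched on both strands.
Cyp4b1 promoter: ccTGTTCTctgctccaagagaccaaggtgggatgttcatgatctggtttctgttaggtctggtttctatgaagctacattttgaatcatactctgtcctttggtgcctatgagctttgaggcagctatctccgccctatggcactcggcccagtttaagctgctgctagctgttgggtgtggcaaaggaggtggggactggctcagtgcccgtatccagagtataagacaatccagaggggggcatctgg
The capitals are the hexamer AGAACA read on the other strand, which 19% of 32851 promoter windows hold and which Cyp4a32 also held once. The windows of Cyp4b1 and Cyp4a32, 300 bases from 250 before to 50 after the start, held no E-box CACGTG (7.15% of all windows), no D-box TTANGTAA (2.32%), no AGGTCA half-site (16.3%) and no pair of AGGTCA half-sites in direct repeat 1 base apart (0.0396%), which would also count as half-sites. These are matches of letters and not sites of binding.

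Cyp4a12a had the largest difference of the 7 genes, and relative to their mean the cKOt mice also spread more widely, with an SD of 60.3% of the mean against 37.1% in control. Control mice had 76.9 to 334 CPM with a median of 171, and cKOt mice 7.49 to 83.8 CPM with a median of 30.0. The ranges met at ZT4 alone, where control replicates 1 to 5 had 213, 116, 76.9, 173 and 251 CPM and cKOt replicates 1 to 5 had 79.6, 60.9, 34.1, 27.5 and 44.1 CPM. At that time point the highest cKOt mouse exceeded the lowest control mouse by a few CPM, and at the other 5 time points every cKOt mouse was below every control mouse. At ZT16, cKOt replicate 2 had 83.8 CPM beside 13.1 to 17.7 CPM in the other 4, and was still below the lowest control mouse of that time point, with 141 CPM. Cyp4a12a fell by 2.59 on the log2 scale (SE 0.157, edgeR adjusted p = 1.23e-20), from 187 ± 69.3 to 32.1 ± 19.3 CPM (SD, n = 30).

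Cyp4a12b, the near-identical neighbour of Cyp4a12a, was lower in cKOt as well, from a much lower level. Control mice had 2.49 to 20.0 CPM with a median of 10.2, and cKOt mice 1.42 to 9.43 CPM with a median of 2.18. The genotypes did not overlap at ZT0, ZT8, ZT16 and ZT20. At ZT4 1 low control mouse, replicate 5 with 2.49 CPM, fell within the cKOt range of 2.03 to 2.72 CPM, and at ZT12 cKOt replicate 3 with 9.43 CPM reached the control range of 5.27 to 9.65 CPM. The log2 change was -2.03 (SE 0.152, edgeR adjusted p = 4.74e-17), and -2.17 without cKOt ZT12 replicate 3. In counts per mouse, Cyp4a12a exceeded Cyp4a12b by a median of 19.0-fold in control and 11.8-fold in cKOt.

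Cyp4a10, a lauric acid hydroxylase, and its close copy Cyp4a31 were lower in cKOt by smaller amounts. Cyp4a10 had 130 to 642 CPM in control mice (median 296) and 96.1 to 692 CPM in cKOt mice (median 158), and its log2 change was -0.81 (SE 0.110, edgeR adjusted p = 1.13e-08). Cyp4a31 had 249 to 605 CPM in control (median 402) and 194 to 646 CPM in cKOt (median 247), and its log2 change was -0.59 (SE 0.0690, edgeR adjusted p = 2.33e-10). Both genes showed their widest gap at the turn from dark to light. At ZT0 control replicates 1 to 5 had 298, 457, 339, 642 and 538 CPM of Cyp4a10, and cKOt replicates 195, 124, 182, 153 and 176 CPM. Cyp4a31 at ZT0 read 441, 499, 437, 463 and 605 CPM in control and 292, 231, 274, 247 and 222 CPM in cKOt. No cKOt mouse reached a control mouse in either set. At ZT12 the genotypes overlapped for both genes, with log2 differences of 0.22 for Cyp4a10 (SE 0.267, edgeR adjusted p = 0.638) and 0.01 for Cyp4a31 (SE 0.168, edgeR adjusted p = 0.971). Leaving out cKOt ZT12 replicate 3, these were -0.33 (SE 0.242) and -0.28 (SE 0.155), with edgeR adjusted p of 0.38 and 0.228.

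Cyp4a14, which is strongly induced by PPARα agonists, was the most variable transcript of the cluster in control, with an SD of 116% of its mean. Control mice covered a 42.8-fold range, from 4.20 to 180 CPM with a median of 17.5. The cKOt mice covered 9.39 to 614 CPM with a median of 27.7, and a 7.38-fold range up to 69.3 CPM once cKOt ZT12 replicate 3 was set aside, less than the 11.2-fold range of Cyp4a12a and the 8.65-fold range of Cyp4a32 in those 29 mice. The control mice at ZT0 alone had 15.5, 52.2, 21.0, 180 and 125 CPM, and those at ZT4 6.06, 84.1, 68.0, 15.1 and 4.20 CPM, so the spread lay between mice of 1 group as well as between times. The mean over the day gave a log2 difference of 0.45 (SE 0.267, 95% interval from -0.07 to 0.98, edgeR adjusted p = 0.158), and 0.11 (SE 0.232, edgeR adjusted p = 0.724) without that library. The difference was called at ZT12 alone, where control replicates 1 to 5 had 17.1, 8.04, 5.57, 11.4 and 18.2 CPM and cKOt replicates 32.3, 32.1, 614, 30.3 and 27.9 CPM. All 5 cKOt mice were above all 5 control mice, also without replicate 3. The log2 difference at ZT12 was 3.01 (SE 0.702, edgeR adjusted p = 0.000863) with that mouse and 1.34 (SE 0.616, edgeR adjusted p = 0.127) without it.

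Cyp4a32, a close copy of Cyp4a10, was at the limit of detection with 2 to 27 counts per mouse. Its highest value was 0.892 CPM in control and 1.38 CPM in cKOt. The gene thus passed the filter of 1 CPM in 1 sample through cKOt mice alone. Its higher values there, at ZT12 too, are not independent of that filter. It averaged 0.413 ± 0.212 CPM in control and 0.579 ± 0.317 CPM in cKOt (SD, n = 30), a log2 difference of 0.40 (SE 0.171, edgeR adjusted p = 0.0475) that was not called without cKOt ZT12 replicate 3 (0.37, edgeR adjusted p = 0.0717). At ZT12 the control mice had 5, 5, 3, 10 and 8 counts and the cKOt mice 15, 13, 27, 17 and 19 counts, and the groups did not overlap. The difference there was 1.38 on the log2 scale (SE 0.395, edgeR adjusted p = 0.00753), and 1.23 without replicate 3 (SE 0.422, edgeR adjusted p = 0.0303). Reads of this gene share 6.96% of their 150-base stretches with Cyp4a10 and Cyp4a31, which averaged 310 and 397 CPM in control.

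**Figure D2:**
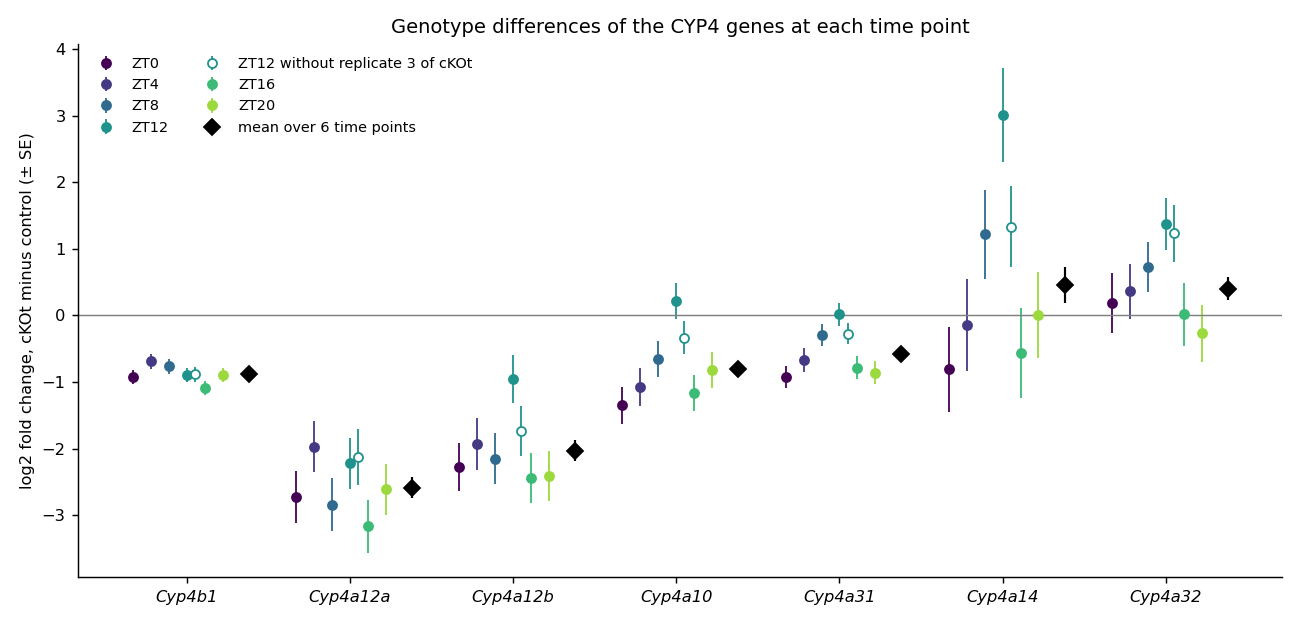
Log2 fold change, cKOt minus control, with its standard error (vertical axis) for each gene at each of the 6 time points, as the mean over them (diamonds) and at ZT12 without cKOt ZT12 replicate 3 (open circles). Cyp4b1, Cyp4a12a and Cyp4a12b stay below 0 at all 6 time points. With all mice, every gene but Cyp4b1 and Cyp4a12a is highest at ZT12.

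Over single time points, 27 of the 42 differences (7 genes at 6 times) were called, 25 lower and 2 higher, against 16.5% over all retained genes. Cyp4b1 and Cyp4a12a were called at all 6 time points and Cyp4a12b at 5. Cyp4a10 and Cyp4a31 were called at ZT0, ZT4, ZT16 and ZT20 and not at ZT8 or ZT12. The ranges of the 5 mice did not overlap in 23 of the 42, with every cKOt mouse lower in 21 (4.39% over all retained genes) and every cKOt mouse higher in 2 (4.53%), both at ZT12. The 2 higher ones, by call and by range, were Cyp4a14 and Cyp4a32. Since Cyp4a32 passed the filter through cKOt mice alone, its higher values are not independent of that filter and are no separate evidence. Without cKOt ZT12 replicate 3, 28 differences were called, 27 lower and 1 higher, with 16.7% over all genes. The higher one was again Cyp4a32 at ZT12. Cyp4a12b at ZT12 (-1.74, SE 0.374, edgeR adjusted p = 0.00035) and Cyp4a10 at ZT8 (edgeR adjusted p = 0.0348) were then called, and Cyp4a14 at ZT12 was not.

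Whether the genotype difference changed over the day was tested as an interaction. It was called for Cyp4a31 (edgeR adjusted p = 0.0388) and for no other of the 7 genes, against 3.08% of all genes, with Cyp4a14 at 0.0661 and Cyp4a10 at 0.0709. The log2 difference of Cyp4a31 was -0.93 at ZT0 (SE 0.170), -0.67 at ZT4 (SE 0.178), -0.30 at ZT8 (SE 0.169), 0.01 at ZT12 (SE 0.168), -0.79 at ZT16 (SE 0.170) and -0.86 at ZT20 (SE 0.172). It was smallest around ZT12 and largest from ZT16 to ZT4. Without cKOt ZT12 replicate 3 the adjusted p for Cyp4a31 was 0.112 by edgeR, and 0 of the 7 genes were called (3.07% of all genes), with 3 at an unadjusted p under 0.05. Cyp4b1 and Cyp4a12a had interaction adjusted p of 0.552 and 0.667 (edgeR).

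Variation over time within control was called for Cyp4a14 alone (edgeR adjusted p = 0.0310, against 30.6% of all genes), with Cyp4a10 at 0.0527. The control means of Cyp4a14 were highest at ZT0 with 78.6 CPM and lowest at ZT12 with 12.0 CPM. Cyp4a10 was likewise highest at ZT0 with 455 CPM and lowest at ZT12 with 232 CPM. Without cKOt ZT12 replicate 3, which is no control mouse but shares in the estimate of the spread, Cyp4a14 (edgeR adjusted p = 0.00253), Cyp4a10 (0.00645) and Cyp4a31 (0.0475) were called in control (31% of all genes). Within cKOt, 5 genes were called (26.6% of all genes), namely Cyp4b1 (edgeR adjusted p = 0.00158), Cyp4a31 (0.00421), Cyp4a32 (0.0055), Cyp4a14 (0.0262) and Cyp4a10 (0.0268). Without that library only Cyp4b1 (0.0015) and Cyp4a32 (0.0182) were called in cKOt (26.8% of all genes). Cyp4b1 of cKOt mice rose from 1543 CPM at ZT0 to 2074 CPM at ZT8.

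In a model selection like that of dryR, which fits a 24 h cosine to each genotype and gives each of 5 models a weight from its BIC, a gene was assigned when the best model had a weight of at least 0.65. Cyp4a14 was assigned to model 2, a rhythm in control alone, with a weight of 0.781. Its peak-to-trough amplitude was 1.84 on the log2 scale in control (SE 0.551), with a peak at ZT21.9, and 0.45 in cKOt (SE 0.551). Cyp4a32 was assigned to model 3, a rhythm in cKOt alone, with a weight of 0.947 and an amplitude of 1.27 in cKOt (SE 0.282) that peaked at ZT8.84. Cyp4a32 had passed the filter through cKOt mice alone. Cyp4a12a was assigned to model 1, no rhythm in either genotype, with a weight of 0.928. The other 4 genes were not assigned. Over all genes, 33.9% were rhythmic in control, 31% in cKOt and 34% in model 1. Without cKOt ZT12 replicate 3, Cyp4a10 joined Cyp4a14 in model 2, with a weight of 0.815, a control amplitude of 0.71 (SE 0.204) and a peak at ZT22.7. The best model of Cyp4a14 was model 1, no rhythm, with no RUVs factor (weight 0.547), with 1 factor (0.547), without replicate 2 (0.558) and without replicate 4 (0.536), none of which reached the weight needed for assignment, and without replicate 3 of every group model 2 had a weight of 0.522.

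The mouse behind cKOt ZT12 replicate 3 carried the highest levels of Cyp4a14, Cyp4a10 and Cyp4a31 among all 60. Its Cyp4a14 of 614 CPM was 19.7-fold above the median of the other 4 cKOt mice at ZT12, which had 27.9 to 32.3 CPM. Its Cyp4a10 of 692 CPM stood beside 152 to 208 CPM, its Cyp4a31 of 646 CPM beside 277 to 360 CPM and its Cyp4a12b of 9.43 CPM beside 1.46 to 2.70 CPM. Cyp4a12a and Cyp4b1 were not high in it, with 21.3 CPM against 13.8 to 51.9 and 1580 CPM against 1661 to 1856. Genes of the PPAR list were high in the same library. So were 2 peroxisomal enzymes. Ehhadh, an enzyme of dicarboxylic acid oxidation, had 1775 CPM against 808 to 943 CPM, and Acot3, a peroxisomal thioesterase, 17.5 CPM against 7.63 to 8.89 CPM. Among genes with a median of at least 1 CPM in the other 4 mice, 13 of 19 PPAR receptors and targets were above all 4 (21.7% of the 13712 such genes) and 4 above all other 59 mice (1.68%), as were 10 and 4 of 16 genes of peroxisomal dicarboxylic acid oxidation. Of 15 genes of the androgen axis 2 were above and 9 below the other 4, where 3633 of the 13712 genes were below them. All 4 fibroblast markers were above and all 3 hepatocyte markers below the other 4 mice. Without that limit on level, 0 of 5 adipocyte markers were above them. Of 3 markers of injured tubule 2 were above the other 4 mice, with Havcr1 at 3.05-fold of their median. Krt20, near the floor at 0.646 CPM and under that limit, was at 2.47-fold. The library had 18987977 reads on genes, was not marked for removal and belonged to library batch 4, and the part of any of these in its CYP4 levels was not tested.

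**Figure D3:**
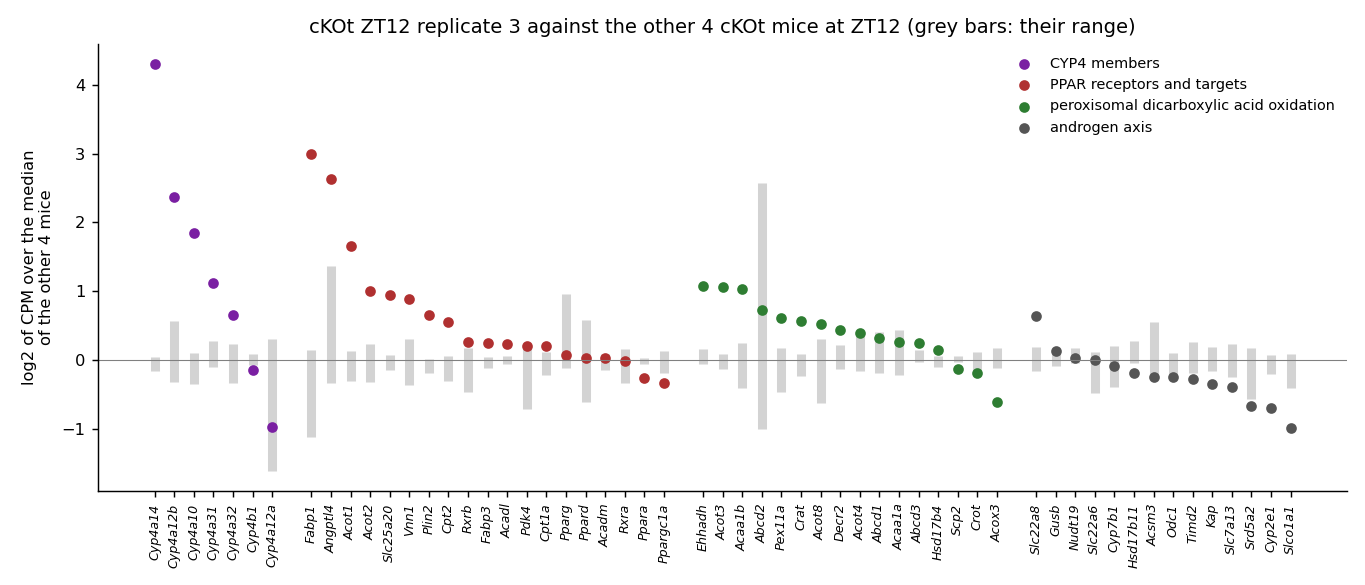
Level in cKOt ZT12 replicate 3 over the median of the other 4 cKOt mice at ZT12 (log2, vertical axis) for the CYP4 genes and most genes of 3 lists, with grey bars for the range of those 4 mice. Cyp4a14 is the highest point plotted, at 19.7-fold, and Cyp4b1 and Cyp4a12a lie at or below 0.

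Mice of 1 group differed in these genes in a shared way, which was examined as deviations of each mouse from the mean of its group. Of the 21 pairs of genes, 17 were correlated across the 60 mice after adjustment, 11 positively and 6 negatively (permutation within groups, 100000 resamples, two-sided). The genes formed 2 sets. All 10 pairs among Cyp4a14, Cyp4a10, Cyp4a31, Cyp4a12b and Cyp4a32 were positive and called, with r from 0.45 to 0.92. Within control they ranged from 0.55 to 0.94 and within cKOt from 0.20 to 0.94. Those of Cyp4a32 with Cyp4a14 and Cyp4a10 were weakest within cKOt, at 0.20 and 0.24, and at 0.08 and 0.14 there without cKOt ZT12 replicate 3, and that of Cyp4a12b with Cyp4a14 went from 0.70 to 0.37. Cyp4a14 and Cyp4a10 had r = 0.92 and rho = 0.93, Cyp4a10 and Cyp4a31 r = 0.85 and rho = 0.81, each at a permutation p of 1e-05, the smallest these resamples can give, and an adjusted p of 3.5e-05. Cyp4a12a and Cyp4b1 formed the other set, with r = 0.66 and rho = 0.68 (permutation p = 1e-05, adjusted p = 3.5e-05). All 10 pairs across the sets were negative over the 60 mice, and 6 were called. The strongest was Cyp4a14 with Cyp4b1, at r = -0.49 and rho = -0.54 (permutation adjusted p = 7.9e-05). Within control the 10 pairs ran from -0.60 to -0.25, but within cKOt from -0.41 to 0.10. The positive value was that of Cyp4a32 with Cyp4b1, at 0.13 without cKOt ZT12 replicate 3. Without it, Cyp4a12b with Cyp4b1 was at 0.04 and Cyp4a12a with Cyp4a32 at 0.001 in cKOt. The sets were read from these same signs.

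The same 3 relations were recomputed in parts of the data. Leaving out the 2 mice farthest from the median of the first gene gave r = 0.90 for Cyp4a14 and Cyp4a10, 0.61 for Cyp4a12a and Cyp4b1 and -0.52 for Cyp4a14 and Cyp4b1. Within control mice these were 0.94, 0.78 and -0.58, and within cKOt mice 0.94, 0.60 and -0.41. The first 2 were positive in 6 of 6 library batches, with lowest values of 0.86 and 0.41, and the third was negative in 5 of 6. Without cKOt ZT12 replicate 3, 17 pairs were again called, and r for Cyp4a14 and Cyp4a10 was 0.90. Cyp4a12a and Cyp4a12b, the pair of closest sequence and both lower in cKOt, were not positively related within groups (r = -0.28, rho = -0.26, permutation adjusted p = 0.0625), although their 12 group means had r = 0.96.

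**Figure D4:**
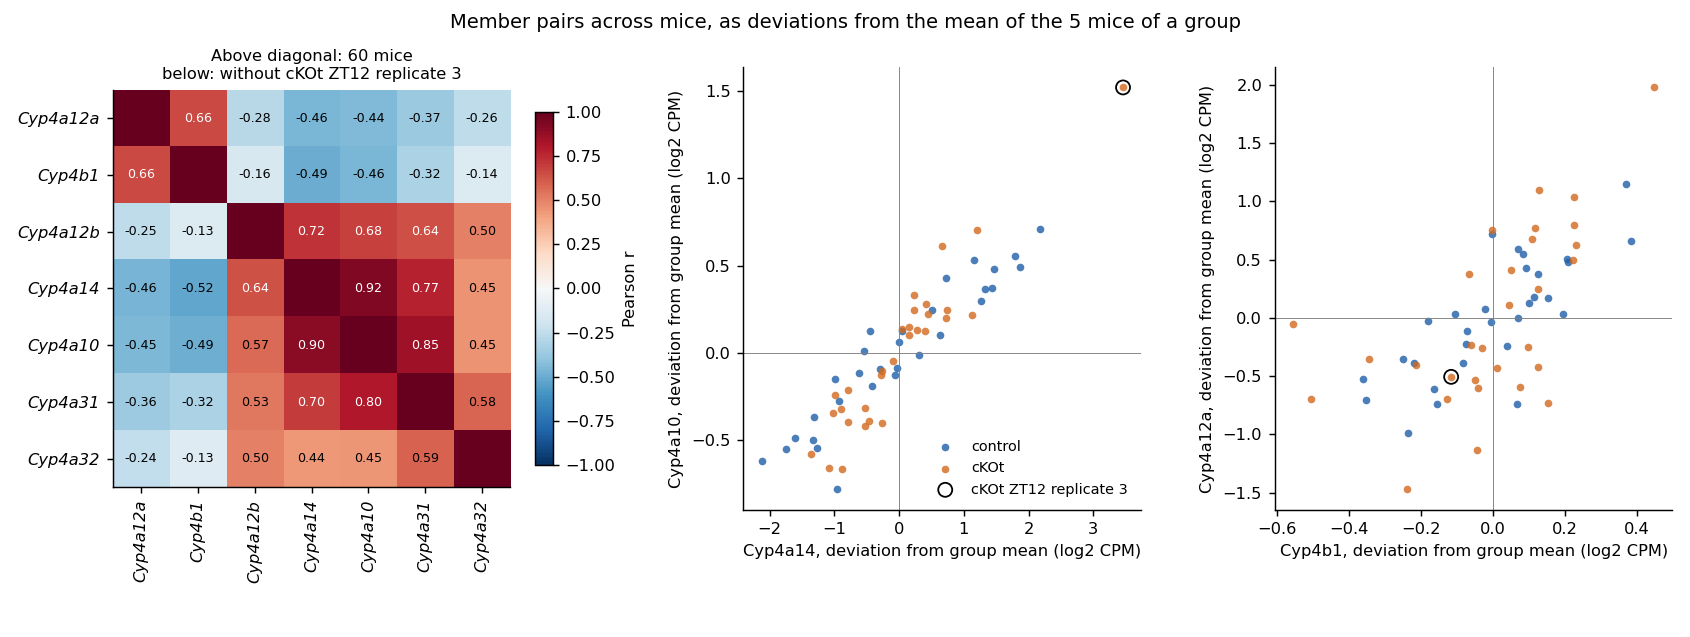
Pearson r between the genes over mice as deviations from group means (left, all 60 mice above the diagonal, without cKOt ZT12 replicate 3 below it) and the deviations of each mouse (log2 CPM) for Cyp4a14 with Cyp4a10 and for Cyp4b1 with Cyp4a12a. Both scatter plots rise from lower left to upper right in both genotypes, with r of 0.92 and 0.66, and the blue cells at left are the negative pairs between the 2 sets.

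Ordered by level, all 6 control groups of Cyp4b1, Cyp4a12a and Cyp4a12b were above all 6 cKOt groups. For Cyp4b1 and Cyp4a12a the step from control ZT0, the lowest control group, to the next cKOt group was the 1 pair of neighbours whose mice did not overlap, and the other 10 neighbouring pairs overlapped. No neighbours were apart for the other 5 genes. The highest group of Cyp4a10, Cyp4a31 and Cyp4a12b was control ZT0, and that of Cyp4a32 was cKOt ZT12. For Cyp4a14 it was cKOt ZT12 with 147 CPM, but the mean there was 30.7 CPM without replicate 3, and control ZT0 with 78.6 CPM was then the highest.

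The genes whose 12 group means ran most like each member were sought among 13775 others with a mean of at least 1 CPM, as a description. For Cyp4a12a they were Ephx2, the soluble epoxide hydrolase (r = 0.994), Gusb (0.989) and Nlrc4 (0.987). For Cyp4b1 they were Reln (0.987), Mettl7a1 (0.987) and Pm20d1 (0.985), and for Cyp4a12b mt-Nd2 (0.983), Ces2c (0.979) and Gsta3 (0.979). All 9 of these were lower in cKOt. Cyp4a10 ran with Aldh1a7 (0.958), Ehhadh (0.945) and Gramd3 (0.936), and Cyp4a31 with Ehhadh (0.981), Adtrp (0.962) and Acadvl (0.949), the last an enzyme of mitochondrial oxidation of very long chain fatty acids. Cyp4a14 had weaker matches, Faf2 (0.833), Eci1 (0.825) and Rimkla (0.818), and so did Cyp4a32, with Oscp1 (0.915), Hnrnpa0 (0.915) and Fkbp14 (0.913). Without cKOt ZT12 replicate 3, all 3 genes of Cyp4a12a were again the 3 most alike, 2 of 3 were for Cyp4a10, Cyp4a31 and Cyp4a32, and 1 of 3 for Cyp4a14, Cyp4a12b and Cyp4b1, with r of 0.75 or more for each gene named. The 12 points share libraries and, for the genes lower in cKOt, the step between the genotypes.

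The partners of the CYP4 enzymes were also lower in cKOt. All 5 electron donors were called lower, against 23.2% of all genes, with a median of -0.17. Por, the reductase that passes electrons to every microsomal P450, fell from 232 ± 40.1 to 150 ± 32.0 CPM (SD, n = 30), a log2 change of -0.61, and its difference changed over the day (edgeR interaction adjusted p = 0.000124). Cyb5a changed by -0.26 and Cyb5r3 by -0.17. Of 9 retained alcohol and aldehyde dehydrogenases, which take omega-hydroxy acids to dicarboxylic acids, 6 were lower, 1 higher and 2 not called, with Aldh9a1 at -0.64, Adh1 at -0.61 and Aldh3a1 at -0.40. Of 17 genes of peroxisomal dicarboxylic acid oxidation, 15 were lower and 1 higher, with a median of -0.28. Acaa1b, a peroxisomal thiolase, changed by -1.10, Ehhadh by -0.46 and Acot3 by -0.32.

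Other CYP4 genes did not share one direction. Of 13 listed, 7 were retained, with 3 higher, 2 lower and 2 not called and a median of 0.04. Over all retained genes, 26.8% were called higher and 23.2% lower. Cyp4f14, a leukotriene hydroxylase, changed by -0.69, Cyp4f16 by 0.40 and Cyp4f18 by -0.41, all at 7.49 CPM or less in either genotype. In the arachidonic acid pathway 4 of 10 retained genes were higher and 2 lower, with Ephx2 at -0.58, Cyp2j13 at -0.52 and Cyp2c23 at 0.46.

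Genes of both regulatory lists named above were called in the same comparison, in which 50% of all retained genes were called, 23.2% as lower and 26.8% as higher. Of 22 retained PPAR receptors and targets, 12 were lower, 4 higher and 6 not called, with a median of -0.25, and 13 lower and 3 higher without cKOt ZT12 replicate 3. Angptl4, a secreted lipase inhibitor, changed by -1.62, Ppard by 2.43 and Ppara by -0.30. Of 15 genes of the androgen axis, 12 were lower and 3 higher, with a median of -0.47. Srd5a2, the steroid reductase that makes dihydrotestosterone, changed by -2.28, Gusb by -1.08 and Odc1 by -1.05. Of 8 transcripts listed for sex bias in kidney or liver 4 were higher, 2 lower and 2 not called, with Slc7a12, an amino acid transporter known for female bias in kidney, at 4.60, Prlr at 1.60 and Cyp2a4 at -3.03. Among 11 clock factors 5 were higher and 4 lower, with Npas2 at 3.45, Nr1d2 at -1.99, Dbp at -1.45 and Arntl at 0.71. The value of Arntl is a mean of log2 differences over time points, and its mean levels were 22.2 CPM in control and 20.7 CPM in cKOt. The part of these lists in the CYP4 differences was not tested.

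Markers of kidney cell types had small medians, with a few exceptions among single genes. Of 7 proximal tubule markers, the segment known for CYP4A enzymes, 3 were higher and 3 lower, with a median of -0.07. Over all retained genes, 26.8% were called higher and 23.2% lower. Of 5 macrophage markers 4 were lower with a median of -0.22, and the medians of 4 podocyte and 5 adipocyte markers were -0.04 and -0.01. In the hepatocyte list Alb changed by -2.93 and Serpina1a by -1.68 while the other 2 retained genes were not called. The part of cell composition in the CYP4 differences was not tested.

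Genes next to the cluster had smaller differences than most of its members. Of 24 other annotated genes inside the cluster or within 250 kb of it, 7 were retained, with log2 differences from -0.10 to 0.68. Of these 7, 1 was called lower and 3 higher, against 23.2% and 26.8% of all retained genes. The lower one, Mknk1, changed by -0.05, and the largest, Tex38, by 0.68 at 0.542 CPM in cKOt. Within the cluster the differences did not follow position, since Cyp4a14 and Cyp4a32, the members that were not lower, lie between members that were.

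**Figure D5:**
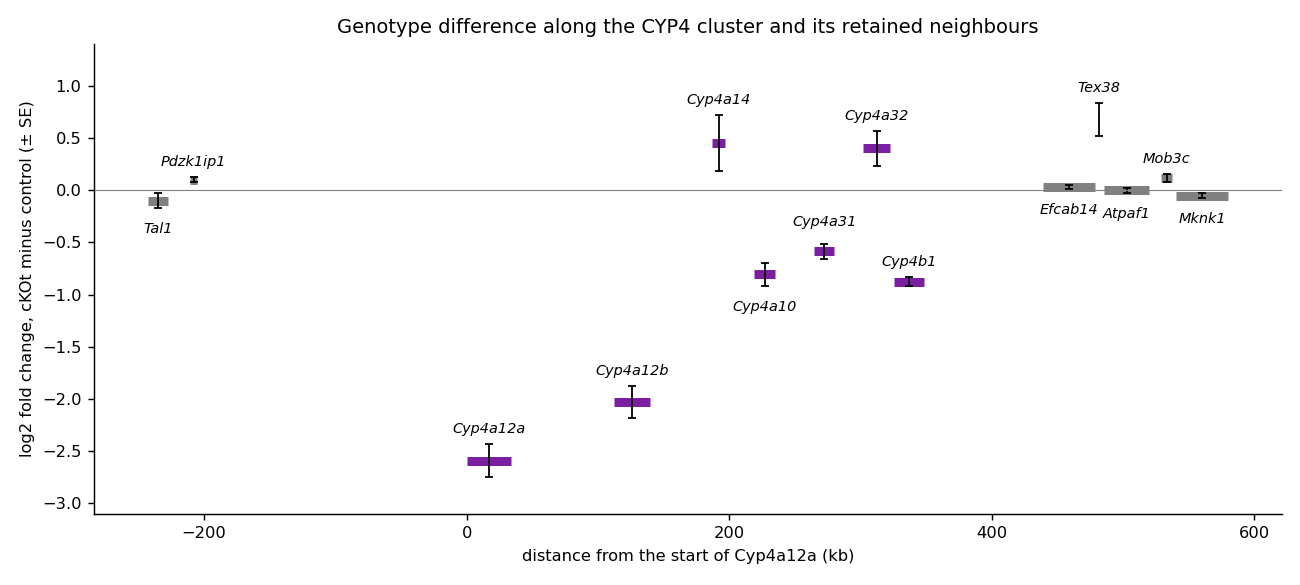
Log2 fold change, cKOt minus control, with its standard error (vertical axis) of the 7 CYP4 genes (purple) and the 7 retained neighbours (grey) at their place along chromosome 4, as the distance in kb from the start of Cyp4a12a. The 5 CYP4 genes that were lower lie between -0.59 and -2.59, and no neighbour is below -0.10.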

How the data were processed

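RNA-Seq was measured in 60 kidney samples (12 groups of 5 mice). The deposited values are raw counts per Ensembl gene, made by the authors with cutadapt 1.8, STAR 2.5.3a and HTSeq 0.9.1 on GRCm38 from stranded poly(A) libraries; the annotation release is not given in the sources used here. Reads aligned to several places (24.3 to 29.4% of those aligned) were not counted. Symbols came from GENCODE M21 (15538 of 15546 retained genes). Each sample had 17791420 to 20906706 reads on genes.

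Genes with at least 1 CPM in 1 sample were fitted in edgeR 4.0.16 (R 4.3.3), with TMM scaling, 12 groups and 2 RUVs factors as in the methods of the study. Quasi-likelihood F tests compared genotypes over the mean of 6 time points, at each time point and for interaction, and time points within each genotype, with Benjamini-Hochberg adjustment over all genes and a threshold of 0.05. Every adjusted p comes from these tests unless another is named. Rhythms were chosen by BIC weight on RUVs-corrected log2 CPM with a prior count of 2. Pairs of genes were compared with 100000 permutations of mice within groups, adjusted over 21 pairs, by Python 3.11.15. The steps were tested on simulated data. No 2 samples of a group were identical (0 of 120 pairs), and the least different pair differed by 5.61 times the counting noise. Pairing by replicate number was checked and not found, as given under the dependence on processing.

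Named were the 7 genes; of each list, the 3 called genes with the largest change plus Ppara, Por, Ehhadh, Acot3 and Arntl; and the 3 genes most like each member. The marker lists, Havcr1 and Krt20 in the library that stood apart, the marker lists' Alb and Serpina1a and the neighbours were named after their values were seen. Some genes of these lists enter the counts but are not reported here by name. The members and lists were chosen with earlier results of these data known. Alternatives were DESeq2 1.42.0, limma 3.58.1, other filters and scalings, library batch or replicate number as a term, summed paralogs and left-out samples. Sequences came from GENCODE M21 transcripts and RefSeq promoters.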

Additional observations from a re-analysis of the deposited data

Results flagged for a closer look

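In 9 of the 84 groups of 5 mice (7 genes in 12 groups), 1 mouse lay far from the other 4 by Dixon's ratio (critical value 0.71), where chance alone gives about 1 in 20. They came from 6 libraries. Of these, cKOt ZT12 replicate 3 gave 4, with 614 CPM of Cyp4a14, 692 CPM of Cyp4a10, 646 CPM of Cyp4a31 and 9.43 CPM of Cyp4a12b. Cyp4a12a was high in control ZT0 replicate 3 (322 CPM beside 87.1 to 143) and in cKOt ZT16 replicate 2 (83.8 CPM). Cyp4a12b was high in control ZT12 replicate 4 (9.65 CPM), and Cyp4a10 in control ZT16 replicate 4 (413 CPM). Cyp4b1 was low in cKOt ZT4 replicate 5 (1350 CPM).

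The genotype difference of Cyp4a31 differed between time points by the interaction test (edgeR adjusted p = 0.0388, range 0.0215 to 0.202 over the alternatives).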

How the results depend on the processing

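The differences of Cyp4b1, Cyp4a12a, Cyp4a12b, Cyp4a10 and Cyp4a31 kept their direction and their call under all 21 alternatives tried for each, with log2 ranges of -0.89 to -0.86, -2.70 to -2.46, -2.17 to -1.84, -0.92 to -0.63 and -0.64 to -0.49 over the 20 that keep the counts of each gene apart. Cyp4a32 lost its call in 13 of 21 and reversed to -0.68 when counts of close copies were summed, since that value is then the sum of Cyp4a10, Cyp4a31 and Cyp4a32; the sum of Cyp4a12a and Cyp4a12b gave -2.55. Cyp4a14 was called without replicate 4 (0.87, adjusted p = 0.0147) and in no other alternative.

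Counts of called genes were less stable where they were small, and the cause was not tested. For the interaction (1 gene by edgeR) the count was 3 by DESeq2, 3 without a filter and 2 without control ZT0 replicate 3. It was 0 by limma-trend, with library batch as a term, and without cKOt ZT12 replicate 3, each of these with 3 genes at an unadjusted p under 0.05. With summed copies it was also 3, but there all genes of a sum were given the same test. That value is therefore not a count of separate genes. For time in control (1 gene) it was 2 by limma-trend, 0 with library batch (2 unadjusted) and 3 without cKOt ZT12 replicate 3. For time in cKOt (5 genes) it was 3 by limma-trend and 2 without cKOt ZT12 replicate 3. Genes assigned a rhythm in control (1) numbered 0 with no RUVs factor, 0 with 1 factor, 3 at a weight of 0.5, 0 at 0.8 and 2 without cKOt ZT12 replicate 3, and those with a rhythm in cKOt (1) numbered 2 with 1 factor, 2 at a weight of 0.5 and 0 with summed copies.

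With each replicate number left out in turn, the called genes ranged from 5 to 7 for genotype, 0 to 3 for interaction, 0 to 2 for time in control, 2 to 5 for time in cKOt, 0 to 3 for rhythms in control and 1 to 3 in cKOt, single time points from 24 to 27 and pairs from 15 to 17. The interaction count was 0 without each of replicates 2 to 5 (2 to 4 unadjusted), and time in control 0 without replicate 4 (0 unadjusted) or 5 (2 unadjusted). The lowest count for time in cKOt, 2, came without replicate 3.

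With the replicate number as a block, 6 genes were called for genotype, 0 for interaction (3 unadjusted), 26 single time points, 1 for time in control and 4 in cKOt. The numbers did not pair the mice: mice with the same number correlated at a mean r of 0.0043 over 330 pairs and others at -0.0010 over 1320, and 6 of 30 control mice correlated best with their own number. Depth limits Cyp4a32, at 2 to 27 counts.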
